A study of Mus musculus with 6 samples.

Results

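A set of 35 mouse genes of the germ line and of pluripotent cells was followed in embryonic cardiomyocytes after knockdown of DNMT1. The set was fixed by name, mapped to Ensembl genes and kept even where no read was counted, and all 35 were found among the 43629 genes in the count files. By role it holds 13 genes of the piRNA pathway and of germ cell transposon defence, 10 of meiotic chromosomes and meiosis, 4 germ cell regulators, 3 proteins of sperm and of the testis surface, and 5 pluripotency genes. In these cultures 11 of the 35 genes had enough counts to be tested. Of the 11, 0 were called higher with DNMT1 siRNA by the limits used here, beside 4.26% of all genes tested. Called lower was 1 gene (Rbm46), beside 2.23% of all genes tested. That call was lost when any DNMT1 siRNA culture was left out. In those fits, lower calls over all genes also fell, from 345 to between 112 and 146. Under 5 counts in every culture were 17 of the 35 genes. RNA-Seq counts came from 3 cultures per treatment.

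The cells were ventricular cardiomyocytes of CD-1 mouse embryos at embryonic day 13.5, from the ventricles of each litter pooled. After 48 h in culture they were transfected with 12 nM negative siRNA (a control siRNA) or 12 nM DNMT1 siRNA (a pool of siRNAs against Dnmt1), and 72 h later cells carrying the surface protein VCAM1 were enriched with magnetic beads for RNA isolation, so the sort followed the knockdown. Both treatments therefore share the strain, the age, the transfection, the siRNA dose and the sort. The labels disagree on the target, since 1 tag of the 3 knockdown samples gives DNMT3a, whereas title, series design and methods give DNMT1, the reading used here. The labels do not say that the 3 cultures of a treatment came from separate litters, so p-values measure the spread between these cultures, which may be in part technical.

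DNMT1 is the maintenance methyltransferase, which copies CpG methylation onto the new DNA strand when a cell replicates. Without it, methylation is diluted with each division, so a loss of the enzyme acts on DNA only in cells that go on replicating. Many germ line genes carry CpG-rich promoters that are methylated in somatic tissue, and they belong to the best known genes that are held silent in this way. Whether the promoters of this set were methylated, or lost methylation after the knockdown, was not measured in these data. The bisulfite sequencing of selected promoters in the study included no gene of the set. A variant Polycomb complex with E2F6, MGA, MAX, PCGF6 and L3MBTL2 binds E-boxes and E2F-type sites in many of the same promoters and adds a further layer of silencing. Pluripotency genes such as Pou5f1 and Nanog are shut off as the embryo leaves the epiblast stage, by repressors and chromatin marks as well as by methylation.

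The promoters of the germ line genes were rich in CpG. RefSeq promoters (build GRCm38.p6, 250 bases before to 50 bases after the start, 300 in all) were matched by symbol for 30 of the 35 genes and not for Piwil2, Tex15, Spo11, Dppa3 and Dppa5a. The median number of CpG was 20.0 in the 27 germ line promoters (range 8 to 38), 11 in the 3 pluripotency promoters (range 4 to 11), 7.0 in all 32851 promoters and 13.0 in the 21263 promoters of protein-coding genes. Of the 27 germ line promoters, 24 lay above the median of protein-coding genes. For Piwil1, Mei1, Tex101 and Figla the window lies 33722, 12480, 4625 and 1020 bases from the start of the gene in the annotation used for positions, so it describes another start of those genes.

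The E-box CACGTG, which reads the same on both strands, was present in 15 of the 27 germ line promoters (55.6%) and in 0 of the 3 pluripotency promoters. It was found in 7.15% of all promoters and in 7.84% of those of protein-coding genes. An E2F-type motif (GCGGGAA, or TTCCCGC on the other strand) stood in 6 of the 30 matched promoters (20.0%), against 4.6% of all promoters and 5.95% of those of protein-coding genes. By role, 8 of 11 piRNA pathway promoters, 5 of 9 meiotic promoters, 1 of 4 regulator promoters and 1 of 3 sperm protein promoters held the E-box. Both motifs contain a CpG, and their share in promoters of like CpG content was not computed. The higher shares are thus not separate from the higher CpG content. A match describes the letters in this window and not a bound site.

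Promoters are shown for Rbm46 (the gene that changed and had the highest level per length), Ddx4 (the most CpG of the set and a transcript in every culture), Hormad1 (a CpG-rich promoter with 1 count in all cultures together) and Nanog (a CpG-poor promoter with a transcript in every culture). They run 5′ to 3′ on the strand of the gene in GRCm38.p6, with each CpG and each CACGTG in capitals. Rbm46 is at chr3:82876434-82876733 (minus strand, 25 CpG), Ddx4 at chr13:112652261-112652560 (minus strand, 38 CpG), Hormad1 at chr3:95559427-95559726 (plus strand, 24 CpG) and Nanog at chr6:122707239-122707538 (plus strand, 4 CpG).
Rbm46: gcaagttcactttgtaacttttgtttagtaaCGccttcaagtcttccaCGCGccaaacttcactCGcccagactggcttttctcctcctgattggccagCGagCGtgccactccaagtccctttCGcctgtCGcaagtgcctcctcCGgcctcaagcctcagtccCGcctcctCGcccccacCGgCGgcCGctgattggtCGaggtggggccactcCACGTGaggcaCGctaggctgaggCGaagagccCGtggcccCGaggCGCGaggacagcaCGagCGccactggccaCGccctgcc
Ddx4: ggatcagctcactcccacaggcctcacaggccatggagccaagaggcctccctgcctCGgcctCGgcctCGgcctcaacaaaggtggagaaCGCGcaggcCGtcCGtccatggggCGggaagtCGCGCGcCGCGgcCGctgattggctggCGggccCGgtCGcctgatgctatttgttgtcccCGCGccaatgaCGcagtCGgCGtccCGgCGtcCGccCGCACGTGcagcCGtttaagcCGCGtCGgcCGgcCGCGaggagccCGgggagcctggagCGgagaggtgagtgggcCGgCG
Hormad1: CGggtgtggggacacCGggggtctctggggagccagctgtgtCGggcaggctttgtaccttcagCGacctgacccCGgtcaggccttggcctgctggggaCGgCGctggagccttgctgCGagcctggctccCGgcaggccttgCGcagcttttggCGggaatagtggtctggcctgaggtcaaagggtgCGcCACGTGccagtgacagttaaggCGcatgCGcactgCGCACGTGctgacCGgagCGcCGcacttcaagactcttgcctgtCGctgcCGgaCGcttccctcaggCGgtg
Nanog: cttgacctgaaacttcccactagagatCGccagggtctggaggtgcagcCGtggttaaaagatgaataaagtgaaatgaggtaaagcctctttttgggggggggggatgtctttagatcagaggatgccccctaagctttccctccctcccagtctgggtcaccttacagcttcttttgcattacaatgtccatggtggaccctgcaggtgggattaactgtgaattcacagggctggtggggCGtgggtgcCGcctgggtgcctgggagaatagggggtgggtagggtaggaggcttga
The E-box stands in the Rbm46, Ddx4 and Hormad1 promoters and not in that of Nanog.

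**Figure D1:**
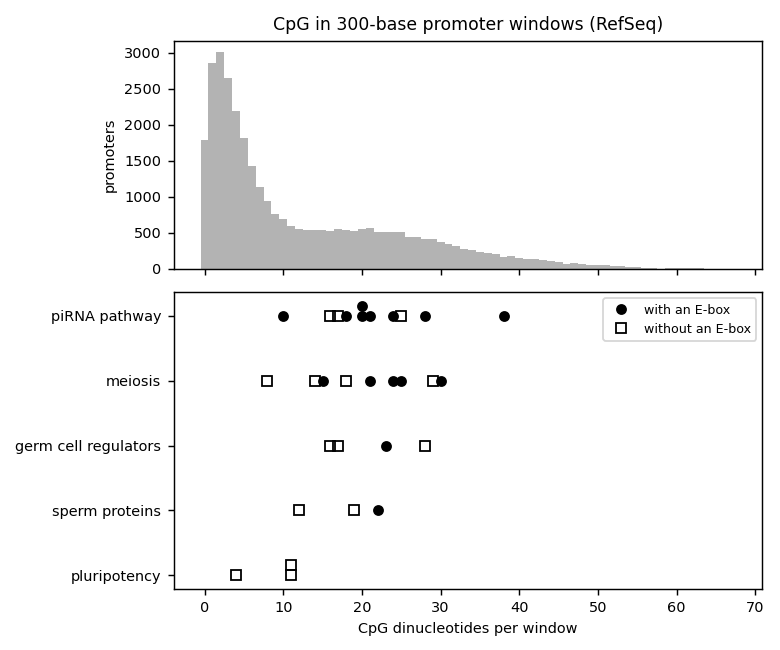
CpG dinucleotides per 300-base promoter window (horizontal axis). The upper panel is the number of promoters at each CpG count over all 32851 promoters. In the lower panel each symbol is 1 of the 30 matched genes by role, filled where the window holds an E-box and open where it does not. All 27 germ line genes (8 to 38) lie to the right of the median of all promoters (7.0). The 3 pluripotency genes lie at 4 to 11.

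The counts bear on how deeply silent genes could be seen. Counts on genes ranged from 27852412 to 35896018 with negative siRNA and from 13739561 to 16186310 with DNMT1 siRNA, so 5 counts correspond to 0.134 to 0.179 CPM (gene counts scaled to a common library size with edgeR's TMM method) in the first and to 0.308 to 0.376 CPM in the second. Uniquely mapped reads that matched no counted feature, which may include reads in introns, made up 14.6% to 17.5% with negative siRNA. In DNMT1 siRNA replicates 1, 2 and 3 they made up 24.4%, 31.5% and 32.0%. The 8 cardiomyocyte markers were all detected, and their summed level was 1865 to 2390 CPM with negative siRNA and 4056 to 4909 CPM with DNMT1 siRNA. Transcripts of the 7 fibroblast markers, collagens among them, were abundant in these sorted cultures, with summed levels of 35980 to 55554 CPM and 27308 to 29165 CPM. Summed marker levels do not give shares of cells. The paper cites its earlier flow cytometry, by which the large majority of magnetically sorted cells were cardiomyocytes.

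Dnmt1 itself was lower in every DNMT1 siRNA culture. Its counts were 5906, 4003 and 3701 in negative siRNA replicates 1 to 3 and 576, 539 and 407 in DNMT1 siRNA replicates 1 to 3. The mean fell from 139 ± 16.9 to 34.1 ± 3.03 CPM (n = 3 each, SD), which is -2.03 on the log2 scale (SE 0.11, edgeR's quasi-likelihood test with Benjamini-Hochberg adjustment, adjusted p = 0.00019203). The de novo methyltransferases Dnmt3a and Dnmt3b did not pass the test, with log2 fold changes of 0.24 (edgeR adjusted p = 0.091937) and 0.21 (edgeR adjusted p = 0.44399).

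With a gene called detected at 5 or more counts, the number of the 35 genes detected was 15, 16 and 12 in negative siRNA replicates 1 to 3 and 13, 14 and 13 in DNMT1 siRNA replicates 1 to 3. These are 34.3% to 45.7% and 37.1% to 40.0% of the set, beside 40.0% to 41.0% and 37.2% to 39.4% of all genes in the files. The groups overlapped. Scaled to the size of the smallest library, the numbers were 10, 14 and 9 with negative siRNA and 11, 14 and 13 with DNMT1 siRNA, and these also overlapped. The summed level of the 35 genes was 19.8, 26.8 and 29.5 CPM with negative siRNA and 23.4, 25.5 and 25.7 CPM with DNMT1 siRNA, so the DNMT1 siRNA cultures lay within the range of the negative siRNA cultures.

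Detected in all 6 cultures were 11 genes, Ddx4, Tdrd1, Tdrkh, Mov10l1, Piwil2 and Tex15 of the piRNA pathway, Sycp1, Stag3 and Rbm46 of meiosis, the regulator Brdt and the pluripotency gene Nanog. Mael, Tdrd9, Syce1 and Slc25a31 were detected in some cultures of both treatments. Tex19.1 and Mei1 were each detected in 1 negative siRNA culture alone, and Sohlh2 in 1 DNMT1 siRNA culture alone. In no culture were detected Asz1, Piwil1, Fkbp6 and Stk31 of the piRNA pathway, Sycp3, Hormad1, Spo11, Dmc1 and Smc1b of meiosis, the regulators Dazl and Figla, the sperm proteins Tex101 and Dpep3, and the pluripotency genes Pou5f1, Zfp42, Dppa3 and Dppa5a. A transcript was therefore seen throughout for 6 of 13 piRNA pathway genes, 3 of 10 meiotic genes, 1 of 4 regulators, 0 of 3 sperm proteins and 1 of 5 pluripotency genes.

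Of the 35 genes, 18 had fewer than 5 counts in each negative siRNA culture, and 17 of these had a count somewhere. With DNMT1 siRNA, 0 of the 18 reached 5 counts in all 3 cultures or in 2 of them, and 1 (Sohlh2) did so in a single culture. Among all 24713 genes under 5 counts in each negative siRNA culture, 15 (0.0607%) reached 5 counts in all 3 DNMT1 siRNA cultures and 698 (2.82%) in any. Among the 6712 protein-coding genes of this kind the share reaching 5 counts in any DNMT1 siRNA culture was 6.66%. Since the DNMT1 siRNA libraries were smaller, a rise of these genes to less than 0.308 CPM was not detectable by this count.

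CpG-rich promoters were found among detected and undetected genes alike. Of the 27 germ line promoters, the 8 of genes detected in all 6 cultures had a median of 24.0 CpG (20 to 38), and the 12 of genes detected in no culture had a median of 18.5 (12 to 29). The E-box was present in 7 of the 8 and in 5 of the 12. These are descriptions of few promoters, and the difference was not tested.

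**Figure D2:**
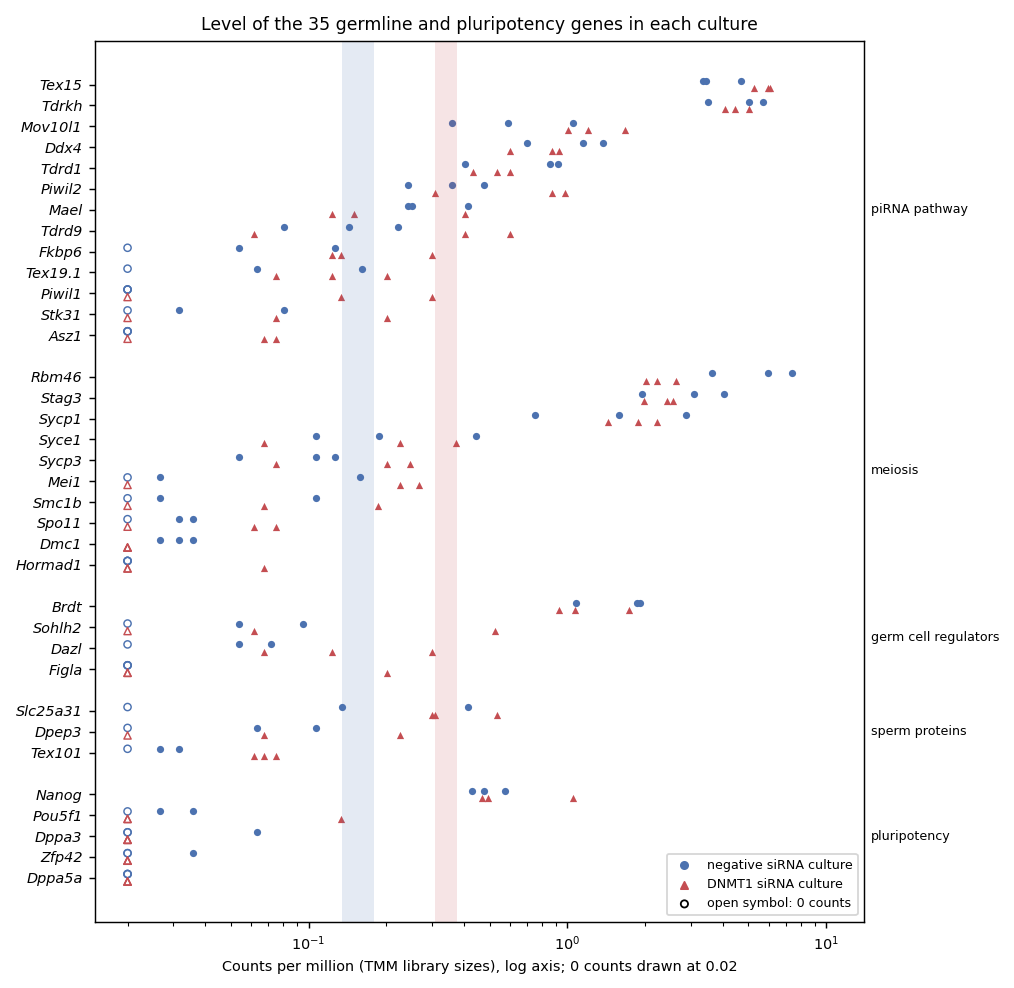
Level of each of the 35 genes in each culture by role, in CPM on a log axis, with blue circles for negative siRNA, red triangles for DNMT1 siRNA and open symbols at the left for 0 counts. The blue and red bands span the CPM of 5 counts in the negative siRNA (0.134 to 0.179) and DNMT1 siRNA libraries (0.308 to 0.376), and among the 11 genes detected in all 6 cultures the circles and triangles lie apart for Rbm46 and Tex15.

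Only the 11 genes detected in all 6 cultures passed edgeR's filter on low counts. By the quasi-likelihood test, with an FDR below 0.05 over 15470 genes and a fold change above 1.5, 0 of these 11 were called higher with DNMT1 siRNA, beside 4.26% of all genes tested, and 1 was called lower, beside 2.23% of all genes tested (6.49% in either direction). DESeq2's Wald test and edgeR's exact test also called 0 higher and 1 lower. At an unadjusted p under 0.05, 1 gene was higher by the quasi-likelihood test (Tex15) and by DESeq2, and 2 by the exact test, beside 14.9%, 12.7% and 13.6% of all genes tested. By each of the 3 tests 1 gene was lower at that limit, beside 14.3%, 12.7% and 12.5% of all genes. With no filter on low counts 34 of the 35 genes were tested, of which again 0 were called higher, beside 3.13% of 31775 genes, and 1 lower, beside 2.21% (5.33% in either direction). These 11 genes are those with transcripts in the cultures and do not stand for the whole set.

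Rbm46, an RNA-binding protein required for germ cells to enter and pass through meiosis, was the gene that changed. It lies at chr3:82837228-82876483 on the minus strand (GRCm38) and shares no exon with another gene. Counts were 135, 188 and 205 in the negative siRNA cultures and 36, 30 and 35 in the DNMT1 siRNA cultures, which are 3.62, 5.96 and 7.33 CPM against 2.22, 2.01 and 2.63 CPM. All 3 DNMT1 siRNA cultures lay below all 3 negative siRNA cultures, a separation in this direction that 17.7% of the 15470 genes showed. The level fell to a fold of 0.407 (95% interval 0.26 to 0.638), a log2 fold change of -1.30 (SE 0.28, edgeR adjusted p = 0.023914). Per kilobase of exon, its mean was 2.26 ± 0.751 RPKM with negative siRNA, the highest of the 35 genes, and 0.915 ± 0.127 RPKM with DNMT1 siRNA (SD, n = 3 each).

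The neighbour Rbm46os, 221 bases from it, had 2 counts in all cultures together. The call for Rbm46 was lost when any DNMT1 siRNA culture was left out, with log2 fold changes of -1.30, -1.22 and -1.42 and edgeR adjusted p of 0.089042, 0.11932 and 0.072856 without replicates 1, 2 and 3. Markers of other cells of the heart also differed in level between treatments. The summed level of 6 macrophage markers was 10.2 to 27.8 CPM with negative siRNA and 8.8 to 13.7 CPM with DNMT1 siRNA, with overlap. Of these 6, 0 were called by the quasi-likelihood test and 4 were called lower by DESeq2 and by the exact test. Over all genes tested, the quasi-likelihood test called 4.26% higher and 2.23% lower. Among markers of the other cell types it gave lower calls for 3 of 7 fibroblast and 1 of 6 epicardial markers. It gave higher calls for 2 of 6 endothelial and 6 of 8 cardiomyocyte markers, and 0 calls for 5 smooth muscle markers (median log2 fold change -0.51). Their part in the change of Rbm46 was not tested, and in bulk cultures fewer cells of a type and less RNA per cell cannot be told apart.

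Tex15, which is needed for piRNA-guided DNA methylation of transposons in the male germ line, stood higher in all DNMT1 siRNA cultures without passing the test. Its counts were 174, 105 and 96 with negative siRNA and 96, 90 and 70 with DNMT1 siRNA, or 4.67, 3.33 and 3.43 CPM against 5.92, 6.03 and 5.26 CPM. The groups did not overlap, as for 18.3% of the 15470 genes in this direction. The fold was 1.503 (95% interval 1.124 to 2.008), a log2 fold change of 0.59 (SE 0.18, edgeR adjusted p = 0.07222).

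The other piRNA pathway genes with a transcript did not pass the test. Tdrkh, a Tudor protein that anchors PIWI proteins at mitochondria, had 3.49, 5.01 and 5.69 CPM with negative siRNA and 4.44, 5.03 and 4.06 CPM with DNMT1 siRNA (fold 0.958, 95% interval 0.683 to 1.343). The groups overlapped, and 36.7% of its exon bases are shared with Oaz3 on the opposite strand, for which 3 to 6 counts per culture were given. Ddx4, the germ cell helicase Vasa, had 1.37, 0.698 and 1.14 CPM and 0.925, 0.871 and 0.602 CPM (fold 0.751, 95% interval 0.429 to 1.316). Its DNMT1 siRNA values overlapped with the low value of negative siRNA replicate 2.

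Mov10l1, the helicase that feeds transcripts into piRNA production, had 0.591, 1.05 and 0.358 CPM with negative siRNA and 1.67, 1.01 and 1.2 CPM with DNMT1 siRNA. Negative siRNA replicate 2 lay within the range of the DNMT1 siRNA cultures, and the fold was 1.934 (95% interval 0.993 to 3.766, edgeR adjusted p = 0.17574). Piwil2, a PIWI protein of fetal and adult germ cells, had 0.242, 0.476 and 0.358 CPM and 0.308, 0.871 and 0.978 CPM, with DNMT1 siRNA replicate 1 inside the range of the negative siRNA cultures (fold 1.979, 95% interval 0.911 to 4.298). Tdrd1, a Tudor scaffold of the germ granule, had 0.403, 0.92 and 0.859 CPM and 0.432, 0.536 and 0.602 CPM, with groups that overlapped (fold 0.726, 95% interval 0.372 to 1.413). The intervals of Mov10l1 and Piwil2 include both a fold below 1 and a fold above 1.5.

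Sycp1, the transverse filament of the synaptonemal complex, had 0.752, 1.59 and 2.86 CPM with negative siRNA and 2.22, 1.88 and 1.43 CPM with DNMT1 siRNA (fold 1.083, 95% interval 0.524 to 2.237). The DNMT1 siRNA cultures lay within the range of the negative siRNA cultures. Stag3, the meiotic cohesin subunit, had 1.93, 3.08 and 4.01 CPM and 1.97, 2.41 and 2.56 CPM, again with overlap (fold 0.773, 95% interval 0.485 to 1.232).

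Brdt, a bromodomain protein of spermatocytes and spermatids, had 1.07, 1.9 and 1.86 CPM with negative siRNA and 0.925, 1.07 and 1.73 CPM with DNMT1 siRNA (fold 0.768, 95% interval 0.443 to 1.331), with groups that overlapped. Nanog, a homeodomain factor of the naive pluripotent state, was the pluripotency gene with a transcript in each culture. It had 0.43, 0.476 and 0.573 CPM and 0.494, 0.469 and 1.05 CPM (fold 1.346, 95% interval 0.711 to 2.549). The value of DNMT1 siRNA replicate 3 was the high one and the others overlapped. Reads of Nanog could come in part from its processed copies elsewhere in the genome, of which Nanog-ps1 and Nanog-ps2 had 1 count each in all cultures together.

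**Figure D3:**
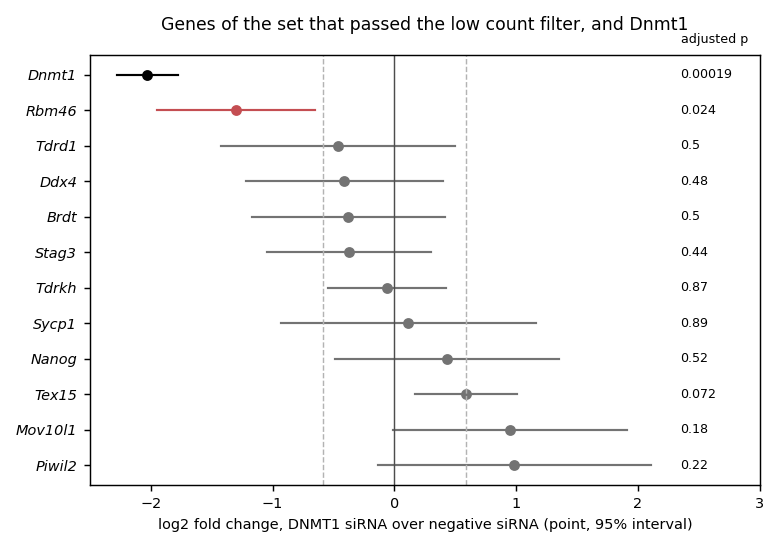
Log2 fold change, DNMT1 siRNA over negative siRNA, of the 11 genes that passed the filter on low counts and of Dnmt1, with edgeR's estimates as points, 95% intervals as bars, adjusted p at the right and dashed lines at a fold change of 1.5 in either direction. Rbm46 (-1.30, red) is the gene of the set past the limits, and Tex15 (0.59) is the other one of the set whose interval leaves out 0.

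Per kilobase of exon, the levels of the set in the negative siRNA cultures ran from Rbm46 (2.26 ± 0.751 RPKM) through Tdrkh (0.77 ± 0.183), Stag3 (0.524 ± 0.181), Sycp1 (0.487 ± 0.299), Tex15 (0.396 ± 0.0775), Ddx4 (0.355 ± 0.113), Brdt (0.315 ± 0.0913), Nanog (0.22 ± 0.0325), Mael (0.174 ± 0.0555), Syce1 (0.169 ± 0.12) and Mov10l1 (0.159 ± 0.0838) to Tdrd1 (0.134 ± 0.0519, SD, n = 3 each). The other 23 genes had means from 0 to 0.0856 RPKM, with Piwil2 at 0.0678 ± 0.0221 RPKM. Rbm46 and Tdrkh did not overlap over the 3 cultures, with a lowest value of 1.45 RPKM for Rbm46 and a highest of 0.926 RPKM for Tdrkh. From Tdrkh to Tdrd1 each gene overlapped with its neighbour in this order. Dnmt1, for scale, had a mean of 18.9 RPKM with negative siRNA and 4.62 RPKM with DNMT1 siRNA. With DNMT1 siRNA the order was Rbm46 (0.915), Tdrkh (0.734), Tex15 (0.596), Sycp1 (0.518) and Stag3 (0.404 RPKM), and the 3 values of Rbm46 (0.804 to 1.05 RPKM) then overlapped with those of Tdrkh (0.661 to 0.818 RPKM).

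The other 24 genes were too rarely counted for the fit and are given by raw counts, with ratios of summed counts, scaled to library size, whose exact 95% intervals cover counting error only. Mael, a germ granule protein of the piRNA pathway, had 9, 13 and 7 counts with negative siRNA and 2, 6 and 2 with DNMT1 siRNA (ratio 0.751, interval 0.326 to 1.585). Syce1, a central element of the synaptonemal complex, had 7, 14 and 3 against 6, 1 and 3 (ratio 0.907, interval 0.387 to 1.968). Slc25a31, the ADP/ATP carrier of sperm, had 5, 13 and 0 against 5, 8 and 4 (ratio 2.056, interval 0.996 to 4.228). In none of these 3 did the treatments separate per culture.

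Tdrd9, a helicase with a Tudor domain that acts in piRNA silencing of transposons, had 3, 7 and 4 counts with negative siRNA and 1, 6 and 8 with DNMT1 siRNA (ratio 2.332, interval 1.05 to 5.215). Sohlh2, a transcription factor of spermatogonia and oocytes, had 2, 3 and 0 against 1, 0 and 7 (ratio 3.483, interval 1.005 to 13.532). Both ratios rest on DNMT1 siRNA replicates 2 and 3 or on replicate 3 alone, and replicate 1 held 1 count of each. Piwil1, the PIWI protein of pachytene spermatocytes and round spermatids, had 0, 0 and 0 counts with negative siRNA and 0, 2 and 4 with DNMT1 siRNA. With the negative siRNA group set to a floor of 3 counts the ratio was 4.35. The exact 95% interval, for counting error only, began at 2.563. In the fit with no filter Piwil1 did not pass (edgeR adjusted p = 0.065595).

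Dazl, an RNA-binding regulator of germ cell fate, had 4 counts in the negative siRNA cultures together and 7 in the DNMT1 siRNA cultures (ratio 3.81, interval 0.968 to 17.746). Fkbp6 had 6 and 8, Mei1 6 and 7, Tex19.1 8 and 6, Sycp3 9 and 8, Dpep3 5 and 4, and Smc1b and Stk31 4 and 4 each, with ratios from 1.633 to 2.903 whose intervals all include 1. Sycp3 shares 52.2% of its exon bases with Chpt1 on the opposite strand, which had 430 to 1103 counts per culture, and Tex19.1 has a close copy in Tex19.2, so their few counts are uncertain.

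The least counted genes gave no fold. Asz1 (0 and 2 counts in the negative and DNMT1 siRNA cultures together), Figla (0 and 3), Hormad1 (0 and 1), Spo11 (2 and 2), Tex101 (2 and 3), Dmc1 (3 and 0), Pou5f1 (2 and 2), Zfp42 (1 and 0) and Dppa3 (2 and 0) were at or under 3 counts per treatment, and Dppa5a had 0 counts in every culture. A count of 0 in a culture allows up to 0.0836 to 0.108 CPM with negative siRNA and 0.185 to 0.218 CPM with DNMT1 siRNA. Oct4, the product of Pou5f1, is the central factor of pluripotent cells, SPO11 makes the breaks that start meiotic recombination and DMC1 repairs them, and none of their genes had more than 2 counts in a culture.

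**Figure D4:**
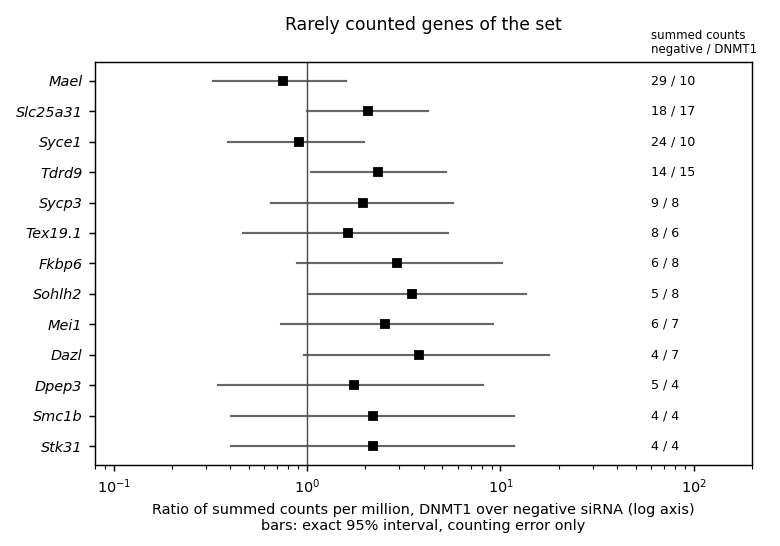
Ratio of summed, library-scaled counts, DNMT1 siRNA over negative siRNA, on a log axis for the 13 genes below the filter with more than 3 counts in each treatment, with exact 95% intervals for counting error as bars and the summed counts at the right. The intervals of Tdrd9 (1.05 to 5.215) and Sohlh2 (1.005 to 13.532) lie above 1, and the other 11 include it.

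Counts on rarely counted genes were higher in general in DNMT1 siRNA replicates 2 and 3. The 24 genes together had 1.24, 2.31 and 1.04 CPM with negative siRNA and 1.85, 3.28 and 3.61 CPM with DNMT1 siRNA, which overlapped. The 8267 other protein-coding genes below the filter summed to 383, 462 and 435 CPM with negative siRNA and to 352, 933 and 930 CPM with DNMT1 siRNA. Replicates 2 and 3, which also had the highest shares of reads that matched no counted feature (31.5% and 32.0%), stood apart from replicate 1 in both sums. The part of this difference in the ratios of Tdrd9, Sohlh2, Dazl and Piwil1 was not tested. In DNMT1 siRNA replicate 1 itself these genes had 1, 1, 2 and 0 counts. A fit of that replicate alone against the negative siRNA cultures, chosen after seeing the data, has 1 culture in a group. Calls of the set are not read from it, since it could call hardly any gene.

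Further genes of the same pathways were read from lists of 100 symbols, of which 96 were found in the files and 33 passed the filter. Of these 33, 1 was called higher and 0 lower, beside 4.26% and 2.23% of all genes tested. Of 16 other piRNA pathway and germ granule genes 10 were tested and 1 (Tdrp) was called, of 26 meiotic genes 13 were tested, of 30 germ cell and cancer-testis genes 2, and of 24 pluripotency genes 8, with 0 called in these last 3 lists. At an unadjusted p under 0.05, 4 of the 33 were higher and 5 lower, beside 14.9% and 14.3% of all genes tested. Tdrp, a testis development protein that is no known piRNA component, had 13.5 ± 1.31 CPM with negative siRNA and 30.5 ± 1.77 CPM after the knockdown (n = 3 each, SD), with a log2 difference of 1.18 (SE 0.10, edgeR adjusted p = 0.00078111).

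Sun1, which tethers telomeres to the nuclear envelope and is used by somatic cells too, and the cell cycle factor Mybl2 passed the FDR limit but not the fold limit, at log2 fold changes of 0.30 (edgeR adjusted p = 0.023114) and -0.49 (edgeR adjusted p = 0.033225). Rhox5, an X-linked homeobox gene of Sertoli cells, had 99, 147 and 166 counts with negative siRNA and 72, 70 and 60 with DNMT1 siRNA, a log2 fold change of 0.05 (edgeR adjusted p = 0.92525). With no filter on low counts 3 further genes of these lists were called higher, the testis tubulin Tuba3a (1 count in the negative siRNA cultures and 3, 5 and 3 with DNMT1 siRNA), the CTCF paralogue Ctcfl (7, 6 and 4 against 14, 12 and 4) and L1td1 (4, 2 and 2 against 6, 4 and 13). Tdrd5 (24, 15 and 34 against 2, 6 and 4) and Trim71 (76, 176 and 115 against 23, 21 and 34) were called lower in that fit and did not pass in the filtered fit. With no filter, 3.13% of all genes tested were called higher and 2.21% lower. The 5 markers of gonadal somatic cells summed to 36.4 to 71.2 CPM with negative siRNA and 63.8 to 66.7 CPM with DNMT1 siRNA, with 2 tested and 0 called. Most of that sum was Sox9, which developing heart also uses (870 to 2613 counts per culture), and over the 6 cultures Dhh had 6 to 33 counts, Amh 2 to 18, Nr5a1 0 to 5 and Foxl2 0 to 2.

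Genes of the silencing machinery were transcribed in all cultures. The 23 genes of DNA methylation, the E2F6 and MGA complex, H3K9 methylation and methyl-CpG binding all passed the filter. Of them, 0 were called higher and 1 (Dnmt1) lower, beside 4.26% and 2.23% of all genes tested. Their median log2 fold change was -0.15, beside -0.0049 over all genes tested. At an unadjusted p under 0.05, 3 of the 23 were higher and 8 lower, beside 14.9% and 14.3% of all genes tested. Trim28, the corepressor that recruits H3K9 methylation, at -0.28 (edgeR adjusted p = 0.028368) passed the FDR limit and not the fold limit. The E-box and E2F-site complex had log2 fold changes of -0.25 for E2f6, 0.16 for Mga, -0.06 for Max, -0.16 for Pcgf6 and -0.11 for L3mbtl2, with edgeR adjusted p of 0.11605 to 0.71209. Uhrf1, which brings DNMT1 to replicated DNA, was at -0.22 (edgeR adjusted p = 0.29061) and the H3K9 methyltransferase Setdb1 at -0.06 (edgeR adjusted p = 0.55836).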

How the data were processed

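RNA-Seq counts were analysed for 3 negative siRNA and 3 DNMT1 siRNA cultures. Libraries were poly(A) selected and sequenced in a single pooled run. The authors used FastQC for cleaning and TopHat2 for mapping (mm10, GRCm38) and deposited raw counts per Ensembl gene (release 79) from HTSeq, 1 file per culture, without normalization. Program versions and the strand setting are not given in the sources used here, so genes that overlap on opposite strands are uncertain. Rows that name no gene (52.956% to 54.227% of the total with negative siRNA, 64.063% to 70.972% with DNMT1 siRNA) were left out.

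Counts were fitted in R 4.3.3 with edgeR 4.0.16 and limma 3.58.1 (TMM, filterByExpr with a minimum count of 10 and a minimum total of 15, quasi-likelihood F test, no block), with Benjamini-Hochberg adjustment over 15470 genes. As in the study, genes with an FDR below 0.05 and a fold change above 1.5 were called. Standard errors were derived from F (log2 fold change over its root). CPM used the TMM-scaled library size, and RPKM the exon union of GENCODE M21. With 3 cultures against 3, an exact permutation test cannot go below p = 0.1. Alternatives were DESeq2 1.42.0, edgeR's exact test, RLE, no filter, a replicate block, leaving out each culture, no fold limit and other detection limits. The fit was tested on simulated counts. Replicates of a treatment differed beyond sampling noise (chi-square per degree of freedom 2.7 to 54.46). Tables and figures were made with matplotlib 3.10.9, numpy 2.4.6, pandas 2.3.3 and scipy 1.17.1 (Python 3.11.15).

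The 35 genes and all lists were chosen with earlier results of these data known. All 35 are named. Values per culture were given for genes with 10 or more counts in any culture, and full statistics for called genes. In the other lists called genes were named, and 1 gene of the silencing list is not reported here. Promoters were chosen among called and highest genes, with genes of 0 counts planned as contrast. Dppa5a, with 0 counts in every culture, had no matched promoter, and Hormad1 with 1 count was shown. The promoter of Nanog was added after the values of Nanog were seen, as were the genes Tdrd9, Sohlh2, Piwil1, Dazl, Rhox5 and those called only without the filter.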

Additional observations from a re-analysis of the deposited data

How the results depend on the processing

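Among the 35 genes, 0 were called higher and 1 lower with DESeq2, the exact test, RLE normalization, no filter, no fold limit and the replicate block, while leaving out 1 culture gave 0 to 1 higher and 0 to 1 lower. Without negative siRNA replicate 1 Tex15 was called higher (log2 fold change 0.76, edgeR adjusted p = 0.025366), and without negative siRNA replicate 2 Mov10l1 (1.41, edgeR adjusted p = 0.038863). Rbm46 was lower in all settings (-1.54 to -1.06), also with DNMT1 siRNA replicate 1 alone (-1.34). It lost its call when any DNMT1 siRNA replicate was left out. Signs turned for Tdrkh without negative siRNA replicate 3 (0.091, range with 1 culture left out -0.24 to 0.091), Sycp1 without negative siRNA replicate 1 (-0.26, range -0.26 to 0.68) or DNMT1 siRNA replicate 1 (-0.071), Nanog without DNMT1 siRNA replicate 3 (-0.039, range -0.039 to 0.63) and Piwil2 with DNMT1 siRNA replicate 1 alone (-0.21), none of which was called. The causes were not tested.

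Over all genes, 659 were called higher and 345 lower, against 994 and 701 with no filter, 1054 and 874 with no fold limit, 255 to 823 and 112 to 472 when 1 culture was left out, and 12 and 3 with DNMT1 siRNA replicate 1 alone. Of the other germ line and pluripotency genes, 4 were higher and 2 lower with no filter, and 2 and 1 with no fold limit. When 1 culture was left out, 1 to 2 were higher and 0 to 1 lower, and 1 was lower by DESeq2 (Trim71). Of the silencing genes, 1 was higher and 2 lower with no fold limit. Detected in all 3 DNMT1 siRNA cultures were 11 of the 35 genes at 5 or more counts, 20 at 1 or more and 7 at 10 or more. For the 3 negative siRNA cultures these numbers were 12, 16 and 10. At 5 or more counts after scaling to the smallest library they were 10 with DNMT1 siRNA and 9 with negative siRNA. Which treatment had more genes detected therefore depended on the limit. The median number of CpG was 15.5 in the 250 bases before the start and 19.5 in the whole window.

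Cultures with the same replicate number did not deviate together (correlations 0.0064, -0.0208 and 0.0274), so the numbers were not taken as pairs. With a replicate block 513 genes were called higher and 285 lower, with 0 and 1 of the set (Rbm46 at -1.25, edgeR adjusted p = 0.030303). Depth limits what can be said of the 24 genes below the filter, in the smaller DNMT1 siRNA libraries above all.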
